A study of Homo sapiens with 4 samples.

Results

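The TOX family comprises the 4 human genes TOX, TOX2, TOX3 and TOX4, and these were taken by gene name from the 50868 genes listed for each library. RNA sequencing was performed in Jurkat T cells, an established human T lymphoblastic leukaemia line, after 24 h in 1 of 4 conditions, with 1 library per condition. Cells received DMSO, the vehicle, or 0.5 µM JQ1, a small molecule that displaces BET bromodomain proteins from acetylated chromatin, and either was given alone or together with PHA (phytohaemagglutinin, 150 ng/ml), a lectin from beans that crosslinks surface receptors and stimulates T cells. The groups are named DMSO, JQ1, DMSO + PHA and JQ1 + PHA, and all 4 are the same line, so they differ by treatment and not by genotype. The study asked how BET inhibition alters genes of T-cell stimulation and exhaustion. The genes were chosen by name as a family, and the family was selected on knowledge of its FPKM and counts in these libraries, so the levels are given as a description, and with 1 library per condition no difference between conditions was tested.

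TOX proteins are nuclear factors that carry a single HMG box, a DNA-binding fold that recognises DNA shape more than a fixed sequence. TOX is required in the thymus for CD4 T-cell development and is induced downstream of calcineurin and NFAT when the T-cell receptor is engaged. It is best known for establishing the exhausted state of chronically stimulated CD8 T cells. TOX2 is expressed in T follicular helper cells, NK cells and exhausted T cells, TOX3 mainly in neurons and epithelia, and TOX4 broadly, as a subunit of a protein phosphatase complex that acts on RNA polymerase II.

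RefSeq start sites were at hand for TOX4 (1 site) and TOX2 (2 sites), and the bases upstream of them are shown because these members had the least alike values over the 4 conditions. Each of the 3 windows of 250 bases before a start was searched on both strands for the NFAT core GGAAA, the AP-1 site TGANTCA and the NR4A site AAAGGTCA. All 3 windows lie inside the deposited gene spans, which begin at 21476597 for TOX4 and 43914864 for TOX2. They are thus upstream of these start sites and not of the whole gene. Coordinates are on GRCh38.p14, plus strand, and each run below lies outside annotated exons except the last, which holds the only match in the 3 windows. It is an NFAT core on the reverse strand, capitals, whose first base lies 116 bases before the second TOX2 start.
TOX4, chr14:21476961-21477121: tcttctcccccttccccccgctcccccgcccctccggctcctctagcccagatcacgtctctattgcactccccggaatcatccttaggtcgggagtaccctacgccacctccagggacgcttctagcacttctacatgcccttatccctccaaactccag
TOX2, first start, chr20:43915880-43916129: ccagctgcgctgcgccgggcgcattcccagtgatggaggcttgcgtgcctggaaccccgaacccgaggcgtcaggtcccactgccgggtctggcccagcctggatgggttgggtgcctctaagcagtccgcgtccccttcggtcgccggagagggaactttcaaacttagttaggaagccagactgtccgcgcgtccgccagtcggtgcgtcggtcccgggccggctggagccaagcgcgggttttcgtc
TOX2, second start, chr20:43945770-43945794: ataacaggttTTTCCatttcacctt
Among the 35116 promoter windows of the same length in the table, 55.6% held an NFAT core, 6.57% an AP-1 site and 1.05% an NR4A site. A match is a run of letters only, and its absence says nothing about whether a factor binds.

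The libraries held between 18620954 and 19685401 counts over all genes and between 20939 and 22118 genes with a count, and mitochondrial genes took 6.27% to 7.07% of the counts. A total of 11503 genes had a mean of at least 1 FPKM (fragments scaled by gene length and library size) over the libraries and served as the background. The T-cell identity of the line was seen in its markers. All 10 T lymphoblast markers (CD3D, CD3E, CD3G, CD247, CD2, CD5, CD7, CD28, LCK and ZAP70) reached 1 FPKM in every library, with summed levels of 341 FPKM in DMSO, 165 in JQ1, 382 in DMSO + PHA and 185 in JQ1 + PHA. Their part in the TOX family values was not tested. Of 4 B-cell markers only CD79A reached 1 FPKM, at 1.01 to 7.48 FPKM, and the myeloid, NK, erythroid and epithelial lists each summed to less than 0.16 FPKM in every library. In a whole-culture library more cells that express a gene and more RNA per expressing cell cannot be told apart.

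TOX was the most abundant member in every library, with TOX4 next, TOX2 far lower and TOX3 without a count. TOX reached 34.3 FPKM in DMSO, 52.3 in JQ1, 78.1 in DMSO + PHA and 61.5 in JQ1 + PHA. TOX4 reached 3.65, 8.33, 3.70 and 5.34 FPKM in the same order. Thus TOX was highest in the stimulated vehicle library, whereas TOX4 was highest with JQ1 alone. TOX2 stood at 0.0528, 0.161, 1.27 and 0.309 FPKM, so that only in the DMSO + PHA library did it pass 1 FPKM. In DMSO + PHA, 2.25% of the tested genes had a higher FPKM than TOX, against 6.82% in DMSO, 3.57% in JQ1 and 2.86% in JQ1 + PHA. For TOX4 these shares were 60.5% in DMSO, 32.9% in JQ1, 60.2% in DMSO + PHA and 46.5% in JQ1 + PHA, so that without JQ1 most tested genes stood above it. TOX and TOX4 passed the filter of a mean of 1 FPKM, with means of 56.5 and 5.26 FPKM, TOX2 with a mean of 0.449 FPKM did not, and TOX3 had no count to filter.

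How far apart the members stood depended on the gene length behind the FPKM. Count and FPKM together imply a length of 4131 bases for TOX, close to the 4076 exon bases of its canonical transcript in GENCODE release 44. For TOX4 the implied length was 13029 bases, 2.89 times the 4514 bases of the canonical transcript and more than the 7091 bases that all its annotated exons cover. On canonical lengths TOX4 came to 10.5 FPKM in DMSO, 24.0 in JQ1, 10.7 in DMSO + PHA and 15.4 in JQ1 + PHA. TOX was then 3.30 times TOX4 in DMSO, 2.20 times in JQ1, 7.40 times in DMSO + PHA and 4.04 times in JQ1 + PHA, while the deposited FPKM gave 9.41, 6.27, 21.1 and 11.5. TOX2, with 2491 canonical bases against an implied 5037, came to 0.107, 0.326, 2.57 and 0.625 FPKM. The order TOX, TOX4, TOX2, TOX3 held in every library on both sets of lengths. Ratios of 1 gene between libraries do not involve its length. Summed over the family, the deposited FPKM was 38.0 in DMSO, 60.8 in JQ1, 83.1 in DMSO + PHA and 67.2 in JQ1 + PHA, of which TOX made up 86.0% to 94.0%. On canonical lengths the share of TOX was 76.6% in DMSO, 68.5% in JQ1, 85.7% in DMSO + PHA and 79.5% in JQ1 + PHA.

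TOX (ENSG00000198846), the exhaustion and thymic factor, lies on the minus strand of chromosome 8 at 58805418 to 59119208 in the deposited GRCh38 coordinates and has 9 canonical exons. Its counts were 2666 (95% exact Poisson interval 2566 to 2769) in DMSO, 4249 (4122 to 4379) in JQ1, 6351 (6196 to 6509) in DMSO + PHA and 4733 (4599 to 4870) in JQ1 + PHA. No pair of these intervals overlapped, and the order from low to high was DMSO, JQ1, JQ1 + PHA, DMSO + PHA. These intervals, like all those given here, cover counting error and not the spread between cultures. How many tested genes had no overlapping pair was not counted. For JQ1 against DMSO, 36.9% of them had a ratio interval above 0 and 38.7% one below. PHA alone gave the largest of the 4 ratios. As a share of all counts TOX was 2.28-fold higher in DMSO + PHA than in DMSO, a log2 ratio of 1.19 with an interval of 1.12 to 1.25. Only 1.46% of tested genes had a larger ratio in that comparison.

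The direction of the JQ1 ratio of TOX differed between unstimulated and stimulated cells. Without PHA, TOX was 1.52-fold higher in JQ1 than in DMSO (log2 ratio 0.61, interval 0.54 to 0.68), and with PHA it was 1.27-fold lower in JQ1 + PHA than in DMSO + PHA (log2 ratio -0.34, interval -0.40 to -0.29). The log2 ratio with PHA minus that without was -0.95 (-1.04 to -0.86). Both JQ1 libraries lay between the 2 vehicle libraries, at 52.3 and 61.5 FPKM against 34.3 and 78.1. In JQ1-treated cells PHA accompanied a 1.18-fold higher TOX share (log2 ratio 0.24, interval 0.18 to 0.30), compared with 2.28-fold in vehicle. A JQ1 interval above 0 without PHA and below 0 with PHA was found for 277 of the 11503 tested genes (2.41%), and 52 of them, TOX included, had both ratios at least as far from 0 as TOX.

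**Figure D1:**
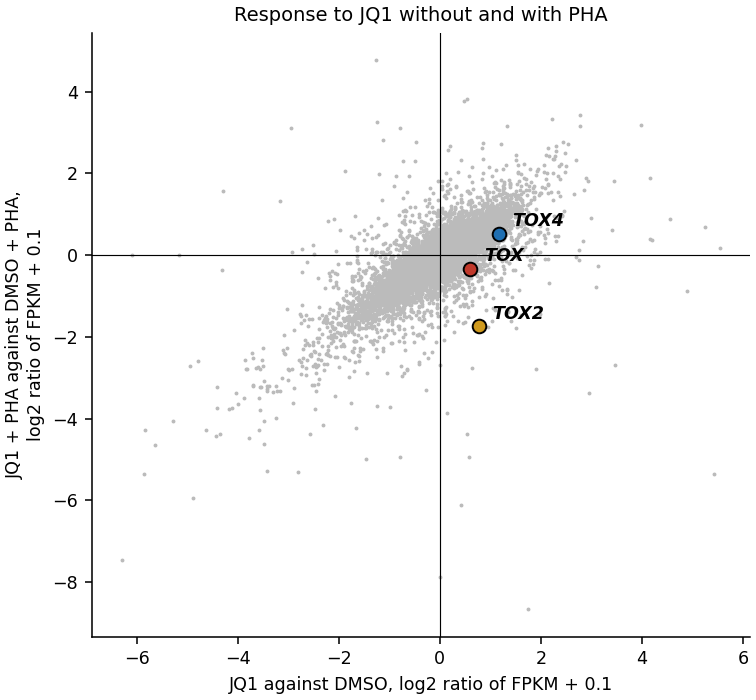
Log2 ratio of FPKM + 0.1 for JQ1 against DMSO without PHA (horizontal axis) and with PHA (vertical axis) for the 11503 tested genes (grey points), with TOX, TOX2 and TOX4 marked. TOX (0.61 and -0.34) and TOX2 (0.78 and -1.74) lie in the quadrant that is higher without PHA and lower with PHA, and TOX4 (1.17 and 0.52) in the quadrant that is higher in both.

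TOX2 (ENSG00000124191), the member tied to follicular helper and exhausted T cells, lies on the plus strand of chromosome 20 at 43914864 to 44069616 and has 9 canonical exons. It had 5 counts (1.62 to 11.7) in DMSO, 16 (9.15 to 26.0) in JQ1, 126 (105 to 150) in DMSO + PHA and 29 (19.4 to 41.6) in JQ1 + PHA. The DMSO + PHA library stood above the other 3, whose neighbouring intervals overlapped. Its share of counts was 24.1-fold higher in DMSO + PHA than in DMSO (log2 ratio 4.59, interval 3.33 to 6.24), and the width of that interval comes from the 5 counts in DMSO. JQ1 + PHA was 4.11-fold lower than DMSO + PHA (log2 ratio -2.04, interval -2.67 to -1.45) and 1.92-fold higher than JQ1 (log2 ratio 0.94, interval 0.01 to 1.92). Without PHA the JQ1 library was 3.06-fold higher than DMSO, from 16 against 5 counts, with a log2 interval of 0.10 to 3.42. The JQ1 log2 ratio with PHA minus that without was -3.65 (-5.21 to -2.09). TOX2 thus shared with TOX the order of the 4 libraries, on far fewer counts. On the scale of log2(FPKM + 0.1) the same TOX2 ratios were smaller, 3.17 for PHA and -1.74 for JQ1 with PHA, because the pseudocount is as large as its lower levels.

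TOX2 entered no count over the tested genes, since its mean lay below 1 FPKM. Under a filter of 0.1 FPKM, which it passed mainly through the DMSO + PHA library, 950 of 18039 genes (5.27%) were at least 2-fold higher in DMSO + PHA than in DMSO, and 2271 (12.6%) were at least 2-fold lower in JQ1 + PHA than in DMSO + PHA. TOX2 was in both groups. TOX3 (ENSG00000103460), at 52438005 to 52547802 on the minus strand of chromosome 16, had 0 counts in all 4 libraries. On its canonical length of 4959 bases a count of 0, which allows up to 3 counts, limits TOX3 to about 0.0307 to 0.0325 FPKM depending on the library.

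TOX4 (ENSG00000092203), the phosphatase complex subunit, lies on the plus strand of chromosome 14 at 21476597 to 21499175 and has 9 canonical exons. It had 894 counts (836 to 955) in DMSO, 2136 (2046 to 2229) in JQ1, 950 (891 to 1012) in DMSO + PHA and 1296 (1226 to 1369) in JQ1 + PHA. The 2 vehicle libraries overlapped, and both JQ1 libraries lay above them. JQ1 was 2.28-fold above DMSO (log2 ratio 1.19, interval 1.08 to 1.31), and JQ1 + PHA was 1.44-fold above DMSO + PHA (log2 ratio 0.53, interval 0.41 to 0.65). In contrast to TOX, TOX4 was similar with and without PHA in vehicle, with a log2 ratio of 0.02 (-0.11 to 0.16). In JQ1-treated cells it was 1.56-fold lower with PHA than without (log2 ratio -0.64, interval -0.74 to -0.54), and 2.66% of tested genes had a smaller ratio. The JQ1 log2 ratio with PHA minus that without was -0.66 (-0.83 to -0.50), below 0 as for TOX and TOX2. How many tested genes had a lower JQ1 ratio in stimulated cells was not counted. A difference below 0 is thus not shown to be particular to the family.

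Against the background, ratios of the size of that of TOX4 with JQ1 alone were less common than those of TOX. A larger JQ1 ratio without PHA was found for 3.63% of tested genes in the case of TOX4 and 14.0% in that of TOX. Of the tested genes 5.22% were at least 2-fold higher in JQ1 than in DMSO on the FPKM + 0.1 scale and 8.65% at least 2-fold lower, and TOX4 was among the former. A counting interval above 0 was found for 36.9% of them and one below 0 for 38.7%, so the intervals of TOX and TOX4 above 0 were shared by more than 1 in 3 genes. In JQ1 + PHA against DMSO + PHA, 3.69% were at least 2-fold higher and 8.00% at least 2-fold lower, neither TOX nor TOX4 among them, while 34.6% had an interval above 0, as TOX4 did, and 38.2% one below 0, as TOX did. In DMSO + PHA against DMSO, 2.10% were at least 2-fold higher, TOX among them, and 1.19% at least 2-fold lower, with 24.7% and 25.1% by the interval. In JQ1 + PHA against JQ1 the shares were 1.04% higher and 1.03% lower by 2-fold, and 15.6% and 15.7% by the interval, with TOX above 0 and TOX4 below.

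Reads from genes that overlap the members bear on these values, because the sources differ on whether the library kit kept strand. TOX shares 108 exon bases, 2.65% of its exons, with TOX-DT, a noncoding gene that runs the other way from the TOX promoter and is listed in the deposited tables by its clone name RP11-25K19.1. TOX-DT had 168 counts in DMSO, 180 in JQ1, 284 in DMSO + PHA and 155 in JQ1 + PHA, well below TOX in each. It was also highest in DMSO + PHA, with a log2 ratio to DMSO of 0.69 (0.41 to 0.98), and lower in JQ1 + PHA than in DMSO + PHA, at -0.79 (-1.09 to -0.51). JQ1 without PHA left no difference beyond counting error, at 0.03 (-0.28 to 0.35), in contrast to TOX.

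TOX4 shares 388 exon bases, 5.47% of its exons, with METTL3, the catalytic subunit of the RNA m6A methyltransferase, whose gene ends against that of TOX4 on the opposite strand. METTL3 had 1194 counts in DMSO, 925 in JQ1, 1309 in DMSO + PHA and 837 in JQ1 + PHA, and so was lower with JQ1 where TOX4 was higher. The log2 ratio to vehicle was -0.43 (-0.56 to -0.31) in unstimulated cells and -0.56 (-0.69 to -0.44) in stimulated cells. RAB2B, a small GTPase gene on the other side, shares 124 bases with TOX4 exons and none with the canonical transcript, and its counts were 928, 991, 933 and 1004. The pseudogene TOX4P1 had between 0 and 4 counts. The part of overlapping reads in the TOX4 values was not tested.

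TOX4 works in the PTW/PP1 complex together with PPP1R10 (PNUTS, the scaffold), WDR82 and a PP1 catalytic subunit, PPP1CA, PPP1CB or PPP1CC, and all 6 genes were expressed above 1 FPKM on average. PPP1R10 stood at 16.8 FPKM in DMSO, 27.9 in JQ1, 17.7 in DMSO + PHA and 28.7 in JQ1 + PHA. Its 2 JQ1 libraries were thus higher to a like extent, at 0.73 (0.65 to 0.81) for JQ1 against DMSO and 0.69 (0.62 to 0.77) in the stimulated pair on the log2 scale. WDR82 stood at 35.6, 36.6, 36.5 and 28.3 FPKM, low only in JQ1 + PHA. PPP1CB was higher with JQ1 in both settings, from 23.2 to 30.8 FPKM without PHA and from 21.8 to 30.2 with PHA. PPP1CA differed less (18.0, 21.4, 17.5 and 19.7 FPKM), and PPP1CC was lower in both PHA libraries (29.5, 26.0, 19.5 and 20.4 FPKM). Of the 6 genes, TOX4 itself was the 1 at least 2-fold higher in JQ1 than in DMSO and none was at least 2-fold lower. The median log2 ratio of the 6, TOX4 included, was 0.32 in each JQ1 comparison, beside -0.01 and -0.02 over all tested genes. For PHA it was -0.01 in vehicle and -0.23 with JQ1. With TOX4 left out, the middle value was that of PPP1CA in every comparison. It was 0.25 for JQ1 without PHA and 0.17 with PHA, and for PHA -0.04 in vehicle and -0.12 with JQ1.

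**Figure D2:**
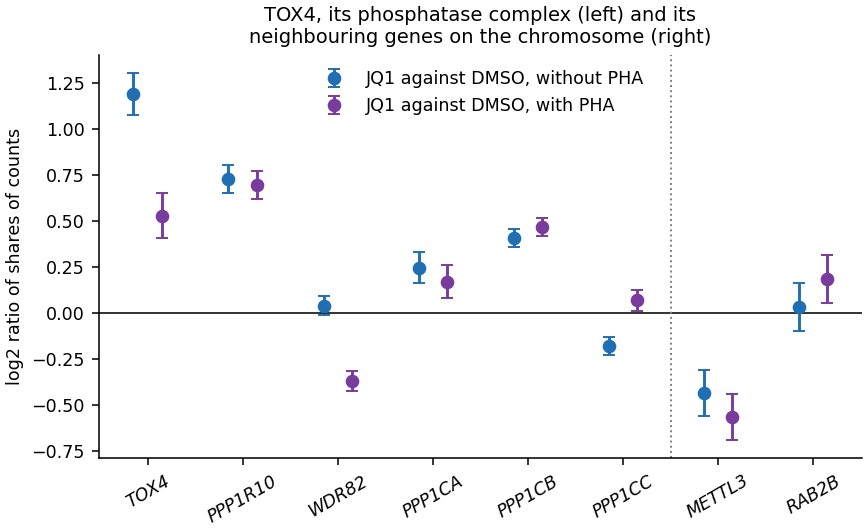
Log2 ratio of the shares of counts (vertical axis) for JQ1 against DMSO without PHA (blue) and with PHA (purple) for TOX4 and the other genes of its phosphatase complex (left of the dotted line) and for the neighbouring genes METTL3 and RAB2B (right), with 95% exact intervals that cover counting error only. TOX4 has the largest ratio without PHA (1.19), PPP1R10 has nearly equal ratios (0.73 and 0.69), and METTL3 is below 0 in both (-0.43 and -0.56).

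The calcineurin and NFAT genes through which T-cell receptor signals reach TOX were mostly modest in their ratios where they passed the filter. Of 11 such genes (NFATC1, NFATC2, NFATC3, NFAT5, the calcineurin subunits PPP3CA, PPP3CB, PPP3CC and PPP3R1, and the NR4A receptors NR4A1, NR4A2 and NR4A3) 7 passed the filter. In DMSO + PHA against DMSO, none of the 7 was at least 2-fold higher and 5 had an interval above 0, with a median log2 ratio of 0.15. Over all tested genes 2.10% were at least 2-fold higher and 24.7% had an interval above 0, with a median of -0.01. All genes of the list but NR4A2 had a mean of at least 0.1 FPKM. Under that filter 3 genes of the list were at least 2-fold higher with PHA in vehicle, beside 5.27% of 18039 genes. They were NFATC1, NR4A1 and NR4A3, the NR4A genes named after their values were seen. NR4A1 had 60 counts in DMSO and 210 in DMSO + PHA, and NR4A3 had 7 and 56. NR4A2 had 0 counts in both. Of the 7 genes, 1 was at least 2-fold higher in each JQ1 comparison, a different one in each. None of the 7 was at least 2-fold lower, with medians of -0.03 without PHA and -0.00 with PHA. Over all tested genes 5.22% and 3.69% were at least 2-fold higher and 8.65% and 8.00% lower, with medians of -0.01 and -0.02. The gene higher without PHA was PPP3CA, a calcineurin catalytic subunit, at 1.14, 2.46, 1.28 and 2.47 FPKM. The gene higher with PHA was NFAT5, the osmotic stress factor, at 1.69, 1.52, 2.13 and 4.56 FPKM. Both were named after their values were seen. NFAT5 was also the 1 gene at least 2-fold higher in JQ1 + PHA than in JQ1, where the median was 0.01. Over all tested genes 1.04% were at least 2-fold higher there, with a median of -0.00. NFATC1, which encodes NFAT2 and fell under the filter, stood at 0.829 FPKM in DMSO, 0.493 in JQ1, 1.78 in DMSO + PHA and 0.689 in JQ1 + PHA. Like TOX it was highest in DMSO + PHA, but with JQ1 it was below vehicle in both settings, including that in which TOX was higher.

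Genes that act beside TOX in exhausted T cells differed in several directions. Of 9 factors (KAT7, TCF7, BATF, IRF4, PRDM1, EOMES, TBX21, BACH2 and MYB) 6 passed the filter, of which 2 were at least 2-fold lower in each JQ1 comparison and none higher, with medians of -0.42 and -0.43. Over all tested genes 8.65% and 8.00% were at least 2-fold lower, with medians of -0.01 and -0.02. Without PHA the count became 1 with a pseudocount of 1 or with DESeq2 size factors. BATF, an AP-1 factor, stood at 4.24 FPKM in DMSO, 1.23 in JQ1, 2.96 in DMSO + PHA and 0.696 in JQ1 + PHA, low in both JQ1 libraries. The second gene past 2-fold was TCF7 without PHA (17.6 FPKM in DMSO and 8.47 in JQ1) and MYB with PHA (31.4 FPKM in DMSO + PHA and 14.3 in JQ1 + PHA), both named after their values were seen. BACH2, a repressor that restrains effector differentiation, was the 1 factor at least 2-fold higher with PHA in vehicle, at 1.90 FPKM in DMSO and 6.50 in DMSO + PHA, and stood at 2.04 in JQ1 and 3.42 in JQ1 + PHA. BACH2 thus had the same highest library as TOX and TOX2. The median of the 6 was 0.12 for PHA in vehicle and 0.11 for PHA in JQ1-treated cells, where TCF7 was the 1 gene at least 2-fold higher.

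Inhibitory receptors and other surface products that mark exhausted cells, the receptor list, mostly fell under the filter, as genes in general did. Of 10 genes (PDCD1, HAVCR2, LAG3, TIGIT, CTLA4, CD160, CD244, ENTPD1, CD38 and CD101) 2 passed the filter, beside 11503 of all 50868 genes. They were PDCD1 and CD244, so no level of the list as a whole can be drawn. The median log2 ratio of these 2 was -2.39 for JQ1 without PHA, -4.10 for JQ1 with PHA, 2.49 for PHA in vehicle and 0.78 for PHA with JQ1. Over all tested genes the medians were -0.01, -0.02, -0.01 and -0.00. PDCD1 passed the filter only through DMSO + PHA, the library where it is high, so the receptor medians are partly set by the filter. The receptor median for JQ1 with PHA was -2.65 with a filter of 0.1 FPKM and -0.10 with none. PDCD1, which encodes PD-1, had 8 counts in DMSO, 1 in JQ1, 356 in DMSO + PHA and 20 in JQ1 + PHA. It shared with TOX2 a peak in DMSO + PHA and a far lower value in JQ1 + PHA, with a log2 ratio between them of -4.07 (-4.80 to -3.42). On the FPKM + 0.1 scale both PHA comparisons put PDCD1 past 2-fold, the one with JQ1 resting on 1 count in the JQ1 library, and with a pseudocount of 1 no receptor passed in that one. HAVCR2, which encodes Tim-3, had 36, 22, 108 and 27 counts. CD244, a SLAM-family receptor, stood at 2.34 FPKM in DMSO, 0.0776 in JQ1, 3.04 in DMSO + PHA and 0.0410 in JQ1 + PHA, and was the 1 receptor at least 2-fold lower in both JQ1 comparisons. Over all tested genes 8.65% were at least 2-fold lower with JQ1 without PHA and 8.00% with PHA.

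A gene that responds to BET inhibitors in many cell types, HEXIM1, an inhibitor of the elongation factor P-TEFb, was 36.2 FPKM in DMSO, 109 in JQ1, 34.6 in DMSO + PHA and 104 in JQ1 + PHA. JQ1 and vehicle differed for it by 1.58 (1.52 to 1.65) on the log2 scale in unstimulated cells and by 1.59 (1.53 to 1.66) in stimulated cells. TOX4, the member with a higher level in both JQ1 libraries, instead had a smaller ratio with PHA, 0.53 against 1.19.

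Other genes with an HMG box were set beside the family to see how it stood among proteins of the same fold. Of 37 such genes, TOX members not included, 24 passed the filter. In JQ1 against DMSO 17 had an interval above 0 and 6 below, with 2 at least 2-fold higher, 1 at least 2-fold lower and a median log2 ratio of 0.39. Over all tested genes 36.9% had an interval above 0, 38.7% one below, 5.22% were at least 2-fold higher and 8.65% lower, and the median was -0.01. In JQ1 + PHA against DMSO + PHA 17 were above and 5 below by the interval, with none past 2-fold and a median of 0.20, beside 34.6%, 38.2% and -0.02 over all tested genes. For PHA the medians were 0.06 in vehicle, with none past 2-fold, and -0.00 in JQ1-treated cells, with TCF7 at least 2-fold higher. The genes past 2-fold with JQ1 alone were LEF1 and HBP1, higher, and TCF7, lower, named after their values were seen. LEF1, a partner of beta-catenin, stood at 33.9, 81.5, 62.0 and 82.7 FPKM, and TCF7, its T-cell homologue and a marker of progenitor exhausted cells, at 17.6, 8.47, 19.2 and 21.4 FPKM. LEF1 resembled TOX in being higher with either agent alone, but was not lower in JQ1 + PHA than in DMSO + PHA.

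To find genes whose values ran most like each member, the log2(FPKM + 0.1) values of the 4 libraries were centred on each gene's mean and compared by their root mean square difference. For TOX the closest of the tested genes were ZNF792, a zinc finger gene (difference 0.0274), the clone-named gene RP11-54C4.3 (0.0423) and SEMA4D, a semaphorin of T cells (0.0488). SEMA4D stood at 6.16 FPKM in DMSO, 10.4 in JQ1, 14.8 in DMSO + PHA and 11.9 in JQ1 + PHA. For TOX4 they were the clone-named gene ENSG00000235946 (0.0389), CALM3, a calmodulin gene (0.0421), and GSDMB, a gasdermin gene (0.0543). CALM3 stood at 15.4, 35.5, 14.8 and 21.7 FPKM. This difference is not scaled by how far a gene varied. The root mean square of a member's own centred values was 0.432 for TOX, 0.477 for TOX4 and 1.17 for TOX2. The number of tested genes within a difference of 0.2 depends on that size too, and was 101 for TOX, 158 for TOX4 and 1 for TOX2.

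The gene closest to TOX2 was TRGV8, a T-cell receptor gamma variable segment (0.130). It was followed by TRGC2, a gamma constant segment (0.201), and PTGER4, a prostaglandin receptor (0.286). TRGV8 stood at 4.32 FPKM in DMSO, 6.41 in JQ1, 30.8 in DMSO + PHA and 10.7 in JQ1 + PHA, and PTGER4 at 3.22, 8.77, 28.1 and 9.13. Both were highest in DMSO + PHA, as TOX2 was, and the low counts of TOX2 make its pattern the least precise of the 3. Among the members themselves the difference was 0.624 between TOX and TOX4, 0.779 between TOX and TOX2 and 1.37 between TOX2 and TOX4. These differences take in the size of the changes as well as their direction, and TOX and TOX2 had the same order of the 4 libraries. Each pattern rests on 4 values and is given as a description.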

How the data were processed

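RNA of the 4 cultures was sequenced once each. The authors aligned reads to GRCh38 with Hisat2 2.0.4, and the submitters' processing notes also name TopHat2 2.0.9 and Cufflinks 2.1.1. The annotation and counting program are not given in the sources used here, and the labels name a VAHTS Universal kit where the study's methods name a stranded one, so the use of strand is unsettled. The deposited tables give raw counts and FPKM per gene, and the FPKM equals the deposited count divided by a fixed gene length and the total count.

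Ratios between libraries were computed from shares of the total count with 95% exact Clopper-Pearson intervals, and differences of ratios with normal intervals from the 4 counts. Genes were called at least 2-fold on log2(FPKM + 0.1) with a mean of at least 1 FPKM. No p-value was computed, since each condition has 1 library. Named genes were the members, the TOX4 complex, list genes at least 2-fold in both JQ1 comparisons, in both PHA comparisons or in DMSO + PHA against DMSO, and the 3 most similar genes per member, with PDCD1, HAVCR2, NFATC1 and HEXIM1 for reference. Members and lists were chosen with earlier results of these data known, and the list that holds HEXIM1 is otherwise not reported here. Alternatives were other pseudocounts, filters and scalings (edgeR 4.0.16, DESeq2 1.42.0). Scripts ran in Python 3.11.15 with scipy 1.17.1 and were tested on simulated data. Exons came from GENCODE release 44 and start sites from RefSeq (GRCh38.p14). RefSeq promoters matched 2 of the 4 members, and the planned comparison of protein sequences was not made. The depth of 18620954 to 19685401 counts puts 3 counts at 0.152 to 0.161 CPM.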

Additional observations from a re-analysis of the deposited data

Results flagged for a closer look

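The JQ1 ratio of TOX pointed up without PHA (log2 0.61) and down with PHA (-0.34), a difference of -0.95, and drew attention because the 2 settings went opposite ways. For TOX2 the same held, from 1.61 to -2.04, a difference of -3.65 that rests on 5 and 16 counts without PHA. The PHA ratio of TOX4 was -0.64 with JQ1 and 0.02 with DMSO, a difference of -0.66, though the second value lies within counting error of 0. With 1 library per condition none of these differences was tested.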

How the results depend on the processing

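All 12 ratios of TOX, TOX2 and TOX4 kept their direction under each of 4 other scalings (TMM, DESeq2 size factors, median set to 0, total without mitochondrial genes), 48 values in all. The 1 that left its counting interval was TOX in JQ1 + PHA against DMSO + PHA, -0.29 with DESeq2 size factors. A pseudocount of 1 gave 1.01 for TOX4 in JQ1 against DMSO, and for TOX2 -0.79 in JQ1 + PHA against DMSO + PHA and 1.11 in DMSO + PHA against DMSO. It left 305 genes at least 2-fold higher and 576 lower for JQ1 without PHA, 225 and 529 with PHA, 129 and 60 for PHA in vehicle and 56 and 58 for PHA with JQ1. A filter of 0.1 FPKM gave, in the same order, 1486 and 2253, 1145 and 2271, 950 and 667, and 606 and 635. No filter gave 1945 and 2797, 1575 and 2925, 1508 and 1080, and 1004 and 1054.

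Of 768 values of the gene lists under alternatives 38 moved. With a pseudocount of 1, the 2-fold counts became 0 for the NFAT list (higher, both JQ1 comparisons), 1 for the exhaustion factors (lower, JQ1 alone), 0 for the thymic list (lower, JQ1 alone, and higher, PHA in vehicle), 1 higher and 0 lower for the HMG box genes (JQ1 alone), and 0 for the receptor list (higher, PHA with JQ1). With 0.01, 2 receptors were lower with JQ1 alone. With a filter of 0.1 FPKM or none, JQ1 alone gave 1 exhaustion factor higher, 3 thymic genes lower and 3 follicular genes higher. JQ1 with PHA gave 2 NFAT list genes, 4 receptor list genes, 3 thymic genes and 1 follicular gene lower. PHA in vehicle gave 3 NFAT list genes, 2 receptors and 3 follicular genes higher, and PHA with JQ1 gave 1 follicular gene higher. DESeq2 size factors gave 1 exhaustion factor, 0 thymic and 0 HMG box genes lower with JQ1 alone and 1 HMG box gene higher with JQ1 and PHA. The receptor list's median for JQ1 with PHA was -2.13 with a pseudocount of 1, -2.65 with a filter of 0.1 FPKM and -0.10 with none. Why these values moved was not tested.

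Each condition has 1 library, so the spread between cultures is unknown and every interval covers counting error only. No paired analysis was possible because the labels give no replicate numbers and each condition has 1 library. No library was left out, since each is the whole of its condition. Depth limits TOX2, with 5 to 126 counts, and TOX3, with 0.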

Other observations

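Thymic and lineage factors, among which TOX acts in T-cell development, were described from a list of 16 genes, of which 14 passed the filter. With JQ1 alone 3 (ID2, ID3 and LEF1) were at least 2-fold higher and 1 (TCF7) lower. By the interval 6 were above 0 and 6 below, and the median log2 ratio was 0.02. Over all tested genes 5.22% were at least 2-fold higher, 8.65% lower, 36.9% above 0 by the interval and 38.7% below, with a median of -0.01. With PHA present 2 (ID2 and ID3) were at least 2-fold higher and 1 (MYB) lower, with a median of -0.09. Over all tested genes these values were 3.69%, 8.00% and -0.02. ID3, an inhibitor of E proteins, stood at 17.0 FPKM in DMSO, 61.3 in JQ1, 22.4 in DMSO + PHA and 65.7 in JQ1 + PHA, and its relative ID2 at 0.611, 3.73, 0.733 and 5.53 FPKM. Both were thus high in the 2 JQ1 libraries. GATA3, which with TOX takes part in CD4 lineage choice, stood at 4.40, 8.21, 9.33 and 9.40 FPKM, and like TOX was lowest in DMSO. In DMSO + PHA against DMSO it was the 1 gene at least 2-fold higher, beside 2.10% of all tested genes. The list's median was 0.35, beside -0.01. In JQ1 + PHA against JQ1 1 gene, TCF7, was at least 2-fold higher, with a median of 0.07, beside 1.04% and -0.00 over all tested genes. LEF1, TCF7 and MYB were named after their values were seen.

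Of 9 genes of follicular helper and innate lymphoid cells, in which TOX2 and TOX are known to act, 3 passed the filter. ID2 was the 1 at least 2-fold higher in each JQ1 comparison, and the medians were 0.48 without PHA and 0.04 with PHA. Over all tested genes 5.22% and 3.69% were at least 2-fold higher, with medians of -0.01 and -0.02. For PHA the medians of the 3 genes were 0.23 in vehicle and 0.17 with JQ1, with none of the 3 past 2-fold. Over all tested genes the medians were -0.01 and -0.00. All genes of the list but CXCR5 and CXCL13 had a mean of at least 0.1 FPKM. Under that filter 3 genes of the list were at least 2-fold higher with PHA in vehicle, beside 5.27% of 18039 genes. They were ICOS, BCL6 and MAF, named after their values were seen. ICOS had 18 counts in DMSO and 127 in DMSO + PHA, BCL6 77 and 195, and MAF 3 and 70. The call for MAF thus rests on 3 counts in DMSO.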
